A study of Mus musculus with 38 samples.

Results

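The genes described here encode 9 components and regulators of the complement system: C1qa, C1qb, C1qc, C1ra, C1s1, C3, C4b, Cfb and Serping1. They were taken by gene symbol from the 55487 genes counted by RNA sequencing, and each had a single row in the tumor table and in the cell line table. All 9 passed the filter on low counts in tumors, and 6 of 9 passed it in the cell lines. Complement is a cascade of secreted proteases and opsonins. In the classical pathway, C1q binds antibody or altered cell surfaces and switches on the proteases C1r and C1s, which cleave C4 and C2. The alternative pathway is built on C3b and factor B and amplifies the other routes, and all of them meet at C3. Macrophages are the best known source of C1q in tissues, whereas most circulating complement comes from the liver, and tumor, stromal and fat cells can also make several components.

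60577 and HGS2 are mouse high-grade serous ovarian cancer (HGSOC) cell lines, each a single line and so a single model of its kind, which were injected into the peritoneal cavity of female mice of 8 to 9 weeks, 60577 into FVB and HGS2 into C57BL/6J. Treated mice received 3 weekly doses of 20 mg/kg carboplatin with 10 mg/kg paclitaxel, from 21 (60577) or 49 (HGS2) days after the injection, and control mice received vehicle. Omental tumors were taken 1 day (TP1), 7 days (TP2) or 21 days (TP3) after the last dose, and there were no controls at TP3. The 60577 groups were 3 control and 3 treated tumors at TP1, 3 control and 4 treated at TP2, and 4 treated at TP3. The HGS2 groups were 3 control and 3 treated tumors at TP1, 4 control and 3 treated at TP2, and 4 treated at TP3, of which replicate 1 was not in the tables of the study and was left out of the fits reported here, apart from an alternative that kept it. Each cell line was also sequenced in monoculture, untreated, with 2 replicates. Total counts ran from 17839635 to 49299442 per tumor and from 31633121 to 42461995 per cell line library. Levels are given as CPM, counts relative to library size after TMM scaling, which allows for library composition. A gene was called where its adjusted p was under 0.05 and its log2 fold change passed 1 in either direction. Values of a group are listed in the order of the replicate numbers.

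Before the complement genes, the tumors were checked against markers of their labelled origin. Pax8, a marker of Mullerian epithelium, reached at most 0.97 CPM in 60577 tumors and 0.175 CPM in HGS2 tumors, and the epithelial adhesion gene Epcam had medians of 10.9 and 1.82 CPM. The keratin genes of the same epithelial list of 7 were higher, with medians of 87.3 (Krt7), 117 (Krt8), 97.7 (Krt18) and 166 (Krt19) CPM in 60577 tumors and 13.6, 25.3, 14.6 and 57.4 CPM in HGS2 tumors, and Cdh1 had 24.5 and 22.0 CPM. Wt1, which HGSOC and mesothelial cells share, had medians of 291 and 125 CPM. Some HGS2 tumors held pancreas RNA. The 5 pancreatic acinar genes Cela1, Cpa1, Pnlip, Ctrb1 and Prss2 together passed 1000 CPM in HGS2 TP1 control 3 (48655 CPM), TP1 treated 1 (1190 CPM), TP2 control 2 (88314 CPM), TP2 control 4 (1079 CPM) and TP3 treated 2 (46436 CPM), and in 60577 TP2 control 1 (1024 CPM). For HGS2, changes without these tumors are therefore also given below.

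Among the 9 genes, C3 had the highest level per exon length in 60577, with a median of 1152 CPM per kb over 17 tumors. In 60577 tumors the next medians were those of C1qa (189 CPM per kb), C1s1 (187), C1qb (184) and Serping1 (178), which lay closer together than the spread among tumors of each. In the 17 HGS2 tumors the medians of C3 (462 CPM per kb), C1qb (439.5) and C1qa (426) were close, and the order of C3 and C1qb turned with the group. C1qb had the higher group median in TP1 controls (501 against 154 CPM per kb), TP1 treated (541 against 397.5) and TP2 treated tumors (558 against 552), and C3 in TP2 controls and TP3 treated tumors. Cfb was the lowest of the 9 in 60577, at 28.1 CPM per kb. In HGS2 it was at 35.9 CPM per kb beside 38.3 for C1ra, and above C1ra in TP2 treated tumors (60.7 against 43.2).

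**Figure D1:**
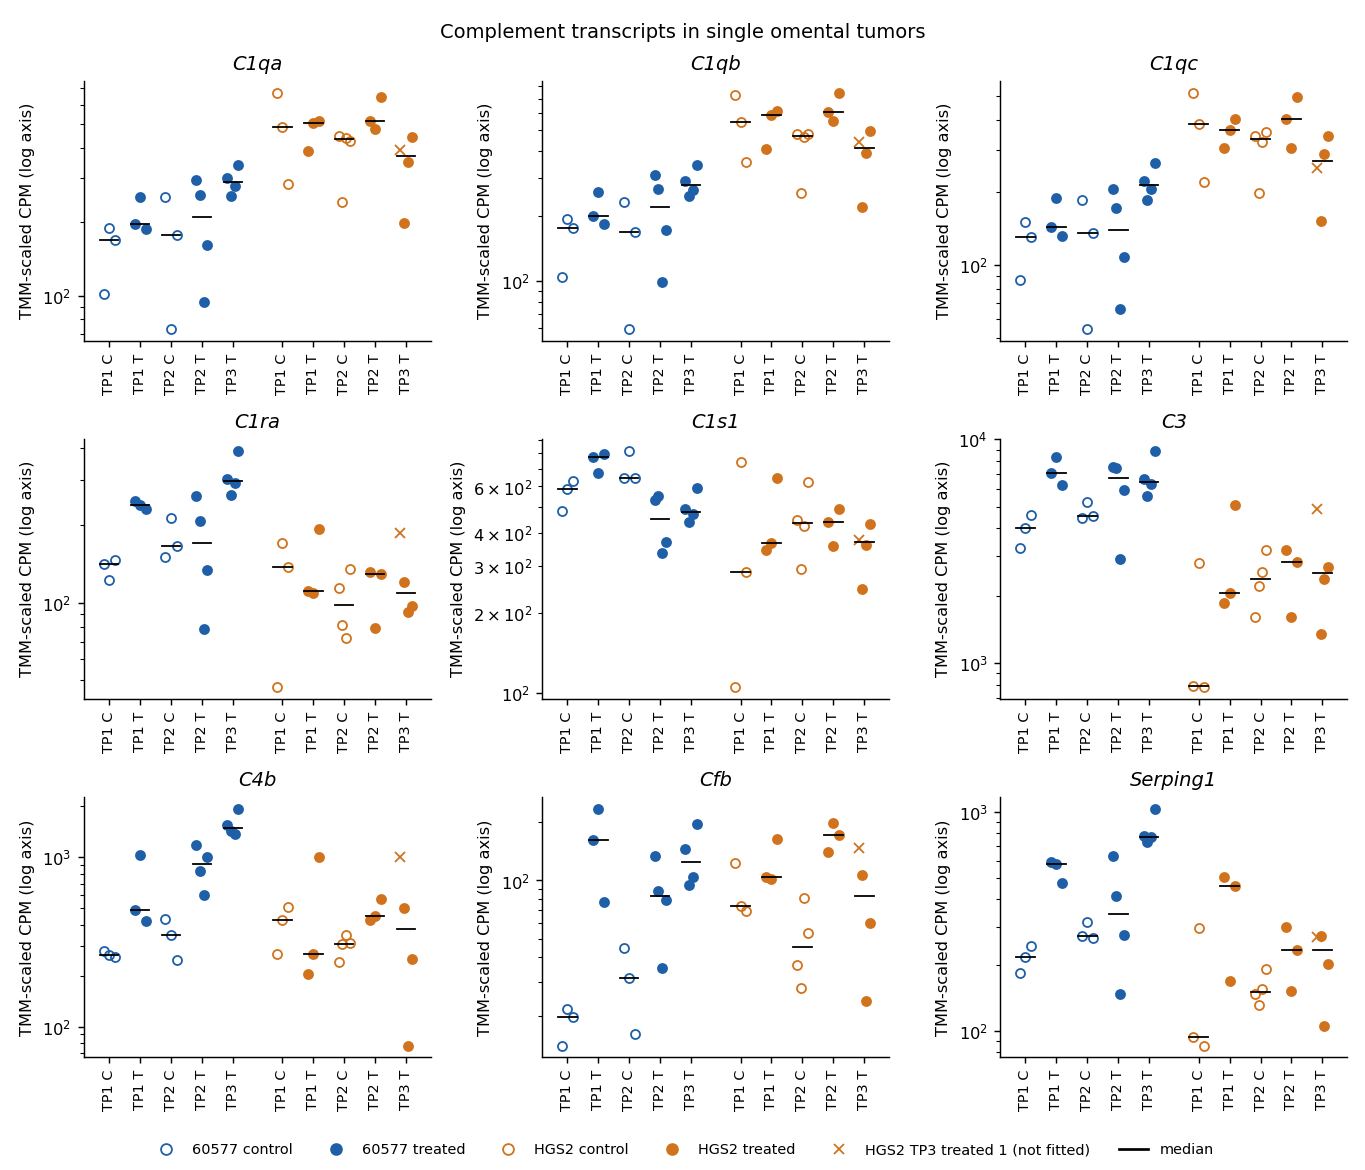
Level of each of the 9 complement genes in single omental tumors, as TMM-scaled CPM on a log axis, by time point and by control (C) or treated (T) group; each point is 1 tumor, the bar is the group median, and a cross marks HGS2 TP3 treated 1, which was left out of the fits. In 60577 the 4 TP3 treated tumors lie above every control for C4b, Cfb and Serping1, while the C1q medians of all 5 HGS2 groups are above those of all 5 60577 groups.

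The first question was what chemotherapy changed in 60577 tumors. At TP1, Cfb, Serping1 and C4b rose in treated tumors, and the 3 C1q genes, C1ra, C1s1 and C3 were not called. Over all 16232 genes tested, 15.6% were called, 9.66% as higher, against 3 of 9 members, all higher. The median log2 fold change was 0.82 over the 9 members and 0.00 over all genes.

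Cfb encodes factor B, the protease precursor of the alternative pathway. In 60577 it was at 14.0, 21.7 and 19.7 CPM in the TP1 controls and at 162, 234 and 77.2 CPM in the TP1 treated tumors. Every treated tumor was above every control, and the lowest treated tumor was still several times the highest control. The log2 fold change was 3.10 ± 0.51 (SE), or 8.59-fold (adjusted p = 0.000375). At TP2 the controls were at 44.8, 31.2 and 16.1 CPM and the treated tumors at 134, 88.0, 35.4 and 79.3 CPM. Here TP2 treated 3 fell between the controls, and the rise was smaller, 1.45 ± 0.46 or 2.73-fold (adjusted p = 0.014). At TP3 the 4 treated tumors were at 146, 94.8, 104 and 195 CPM, all above the TP2 controls, by 2.14 ± 0.47 on the log2 scale or 4.41-fold (adjusted p = 0.00146). With no TP3 controls, treatment and time cannot be told apart at TP3, here and below.

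C4b encodes complement C4, the classical pathway component that C1s cleaves. It was at 281, 264 and 260 CPM in the 60577 TP1 controls and at 488, 1037 and 420 CPM in the treated tumors. The groups did not overlap, and C4b was higher by 1.28 ± 0.31 on the log2 scale (adjusted p = 0.00617), but without TP1 treated 2 the C4b change was 0.77 (adjusted p = 0.0411) and was not called. In the joint fit of both models C4b at TP1 was not called either (1.27, adjusted p = 0.0775). At TP2 the controls were at 433, 346 and 248 CPM and the treated tumors at 1189, 836, 603 and 1000 CPM. At TP3 the treated tumors were at 1556, 1429, 1376 and 1928 CPM. All TP2 and TP3 treated tumors were above all TP2 controls, by 1.39 ± 0.30 at TP2 (2.63-fold, adjusted p = 0.00128) and by 2.20 ± 0.31 at TP3 (4.61-fold, adjusted p = 3.99e-05), 2 comparisons that share the TP2 controls.

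Serping1 encodes C1 inhibitor, the serpin that blocks C1r and C1s. In 60577 it was at 184, 218 and 244 CPM in TP1 controls and at 593, 578 and 475 CPM in TP1 treated tumors. The groups were well apart, and the rise was 1.36 ± 0.35 on the log2 scale or 2.56-fold (adjusted p = 0.00839). At TP2 the treated tumors spread from 147 to 627 CPM around controls of 273, 315 and 266 CPM, and the change of 0.35 ± 0.33 was not called (adjusted p = 0.367). At TP3 they were at 773, 732, 765 and 1030 CPM, above every TP2 control and every TP2 treated tumor. The log2 fold change was 1.54 ± 0.34 against the TP2 controls (2.91-fold, adjusted p = 0.00145) and 1.19 ± 0.30 against the TP2 treated tumors (2.28-fold, adjusted p = 0.0106). Without TP2 treated 3 the latter Serping1 difference was 0.93 (adjusted p = 0.0173) and was not called.

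**Figure D2:**
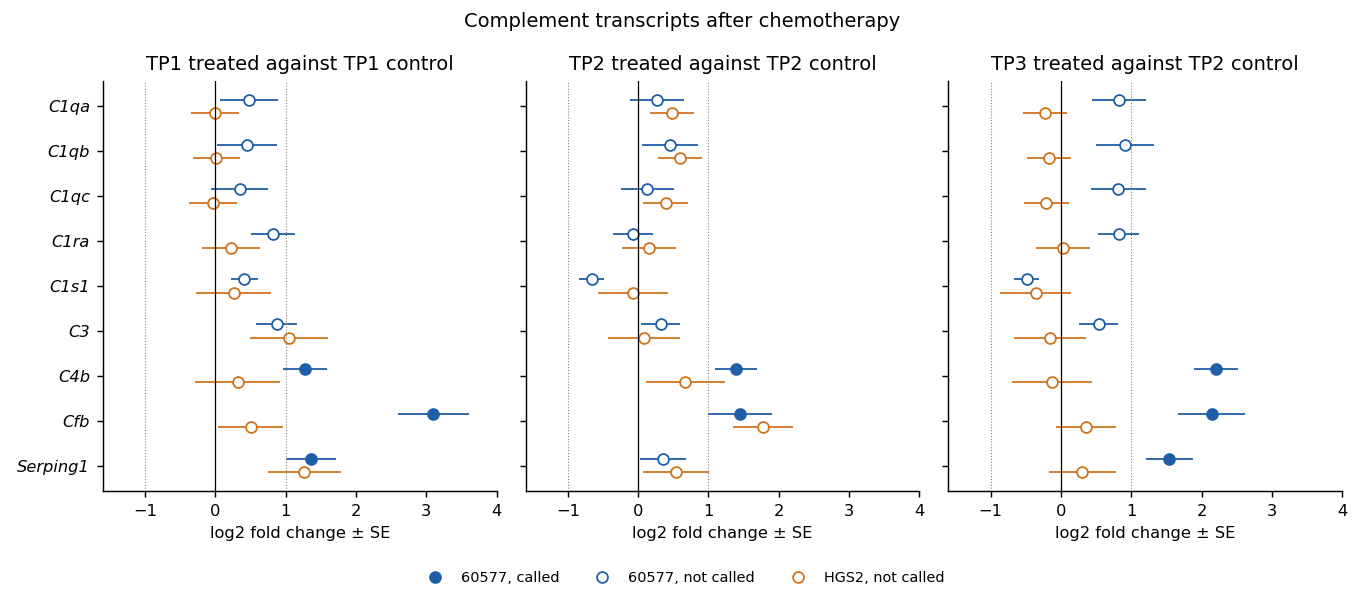
Log2 fold change with its standard error (edgeR) for the 9 genes in treated against control tumors of both models; TP3 treated tumors are set against TP2 controls, filled points are called, and dotted lines mark a log2 fold change of 1 in either direction. In 60577, C4b and Cfb are called at all 3 time points and Serping1 at TP1 and TP3, while no HGS2 point is called; the joint fit of both models did not call C4b at TP1.

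At TP2 in 60577, 24.5% of all genes tested were called, 14.8% as higher, against 2 of 9 members, Cfb and C4b. Against the same TP2 controls at TP3, 24.4% of all genes and 3 of 9 members were called, again with every called member higher. Without TP2 control 3 the Cfb change at TP2 was 1.14, still past 1, but its adjusted p of 0.0627 was not under 0.05 (1 of 9 called). Leaving out TP2 control 1, which had the highest C1q levels of the TP2 controls and the acinar RNA, brought calls of the 3 C1q genes at TP3 (6 of 9 called). With single tumors left out, calls over all genes ranged over 3433 to 4347 at TP2 and 3610 to 4212 at TP3.

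C1r and C1s form the protease arm of the C1 complex, and their transcripts moved differently between 60577 groups, with no change called. C1s1 was at 648, 816 and 644 CPM in TP2 controls and at 534, 551, 337 and 372 CPM in TP2 treated tumors. Every treated tumor was below every control, yet the log2 fold change of -0.66 ± 0.18 (adjusted p = 0.00547) did not pass the limit of 1 for a call. C1ra was at 151, 214 and 167 CPM in TP2 controls and at 302, 262, 294 and 390 CPM in TP3 treated tumors, which were all higher. That change was 0.82 ± 0.29 (adjusted p = 0.0273) and was not called either, beside -0.49 ± 0.18 (adjusted p = 0.0317) for C1s1 in the same tumors. Per exon length, C1s1 stood at 3.63 to 4.08 times C1ra in the TP2 controls and at 1.44 to 1.60 times in the TP3 treated tumors, with no overlap. In the TP2 treated tumors this ratio was 1.96 to 4.09, a range that spans the controls, and the ratio was not tested. At TP1 the 2 genes gave 0.82 ± 0.31 (C1ra, adjusted p = 0.0507) and 0.41 ± 0.19 (C1s1, adjusted p = 0.112), and at TP2 C1ra gave -0.07 ± 0.28.

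C3, from which both pathways generate opsonin, was at 3274, 4028 and 4609 CPM in 60577 TP1 controls and at 7088, 8352 and 6244 CPM in TP1 treated tumors. The groups did not overlap, and the log2 fold change of 0.87 ± 0.29 (adjusted p = 0.0325) stayed under the limit for a call. The changes at TP2 (0.32 ± 0.27, adjusted p = 0.33) and TP3 (0.53 ± 0.28, adjusted p = 0.118) were smaller than at TP1 and were not called. TP2 treated 3, at 2924 CPM, had the lowest C3 of all 60577 tumors, and also the lowest C1ra, C1s1 and Serping1.

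The treated 60577 tumors were also compared with each other. From TP1 to TP2, 6.02% of all genes and no member were called. C1s1 was lower in every TP2 treated tumor (-0.75 ± 0.18, adjusted p = 0.0132, not past the limit of 1), and Cfb gave -0.91 ± 0.43 (adjusted p = 0.139). From TP2 to TP3, 7.88% of all genes were called and 1 of 9 members, Serping1, as given above. C1ra (0.89 ± 0.27, adjusted p = 0.0204) and C4b (0.81 ± 0.27, adjusted p = 0.0319) were higher in every TP3 tumor than in every TP2 treated tumor without passing the limit. These counts moved with single tumors. Without TP2 treated 1 there were 2 of 9 called from TP1 to TP2, and 3 of 9 from TP2 to TP3, whereas without TP2 treated 3 none was called from TP2 to TP3. Over all genes, 2127 were called from TP2 to TP3 without TP2 treated 1 and 732 without TP2 treated 3, beside 1279 with all. From TP1 to TP2, calls over all genes ranged over 254 to 1369 with single tumors left out, beside 977 with all. Between TP1 and TP2 controls 0% of genes were called by edgeR, with 1501 genes at an unadjusted p under 0.05, 70 called by DESeq2 and 0 by limma-voom, and the members ranged from -0.03 to 0.75. Even so, every TP2 control was above every TP1 control for C1ra (0.38), C1s1 (0.32) and Serping1 (0.41). Groups of this size can thus lie apart without treatment, and the share of all genes that did so was not counted in any comparison.

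The C1q chains form the recognition unit of the classical pathway, each unit holding A, B and C chains. C1qa in 60577 was at 102, 188 and 168 CPM in TP1 controls, 196, 252 and 186 CPM in TP1 treated tumors, and 253, 72.9 and 176 CPM in TP2 controls. The treated tumors were at 296, 256, 93.8 and 161 CPM at TP2 and at 301, 253, 280 and 342 CPM at TP3. Controls and treated tumors overlapped at TP2, and at TP1 by a small margin, while at TP3 the lowest treated tumor was level with the highest TP2 control. Treatment changes of the 3 chains were 0.34 to 0.48 at TP1 (adjusted p = 0.399 to 0.553), 0.13 to 0.46 at TP2 (adjusted p = 0.34 to 0.782) and 0.82 to 0.91 at TP3 (adjusted p = 0.0735 to 0.0895). At TP3 limma-voom called C1qb (1.10, adjusted p = 0.0427).

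The 3 C1q genes lie side by side on chromosome 4 (GRCm38), C1qb at chr4:136880129-136886187, C1qc at chr4:136889804-136893065 and C1qa at chr4:136895917-136898803, all on the minus strand, and their levels moved together from tumor to tumor. In deviations from group means over 33 tumors, Pearson's r was 0.994 between C1qa and C1qb, 0.991 between C1qa and C1qc, and 0.987 between C1qb and C1qc. Per exon length C1qb was 0.973 times C1qa in the median 60577 tumor and 1.07 times in the median HGS2 tumor, and C1qc was 0.397 and 0.416 times. Since these genes varied together, the promoters of the C1q genes held by the RefSeq table (GRCm38.p6, from 250 bases before to 50 bases after the start) are shown, C1qb at chr4:136886151-136886450 and C1qc at chr4:136892865-136893164, both read 5′ to 3′ on the minus strand. Capitals mark matches, on either strand, to GAGGAA, a core that PU.1, a myeloid factor, can bind, and to the NF-kB consensus.
C1qb: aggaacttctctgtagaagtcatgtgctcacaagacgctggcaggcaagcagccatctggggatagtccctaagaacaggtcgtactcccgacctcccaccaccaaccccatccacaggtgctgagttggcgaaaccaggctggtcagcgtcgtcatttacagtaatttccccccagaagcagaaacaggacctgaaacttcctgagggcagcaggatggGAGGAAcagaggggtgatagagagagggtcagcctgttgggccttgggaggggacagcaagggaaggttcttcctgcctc
C1qc: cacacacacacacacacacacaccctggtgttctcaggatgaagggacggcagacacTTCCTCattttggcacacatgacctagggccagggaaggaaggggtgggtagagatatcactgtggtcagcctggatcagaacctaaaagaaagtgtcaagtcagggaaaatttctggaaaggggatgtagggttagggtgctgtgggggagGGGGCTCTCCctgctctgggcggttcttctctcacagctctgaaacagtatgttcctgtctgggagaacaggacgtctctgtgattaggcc
GAGGAA was matched once in each, starting 30 bases before the C1qb start and 193 bases before the C1qc start, where it lies on the opposite strand, and 28.3% of all 32851 promoters in the table hold it. The NF-kB consensus was matched once in C1qc, starting 41 bases before the start, and 8.46% of all promoters hold it. The 2 matches in C1qc do not overlap. The core of an interferon response element, GAAA and GAAA with 2 bases of any kind between them, and the palindrome TTCNNNGAA had no match in either window, and 3.44% and 8.3% of all promoters hold them. Of the 9 members, 5 matched the table.

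The genes most like the C1q genes across tumors were macrophage genes. By the same measure (33 tumors, deviations from group means), the 3 closest genes outside the trio were Adgre1 (r = 0.911), Slamf9 (0.91) and Csf1r (0.907) for C1qa, with Adgre1, Csf1r and Clec4a3 also closest to C1qb and C1qc. Adgre1 encodes the macrophage surface protein F4/80 and Csf1r the receptor for CSF1. For the other members the closest genes were Dcn for C1ra (0.894), a fibroblast proteoglycan gene, Ccdc80 for C1s1 (0.841), Cd82 for C3 (0.869), the chemokine gene Ccl19 for C4b (0.867), Jak1 for Cfb (0.846) and the cytokine receptor gene Il6st for Serping1 (0.843). Between other members, r was highest for C1ra with C1s1 (0.783), C1s1 with C3 (0.779), C1ra with Serping1 (0.703) and C4b with Cfb (0.682). For the C1q genes it was 0.426 to 0.47 with C3, 0.368 to 0.403 with Cfb, 0.255 to 0.31 with Serping1, and 0.025 to 0.203 with C1ra, C1s1 or C4b. These values are descriptions over tumors that share libraries and scaling.

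**Figure D3:**
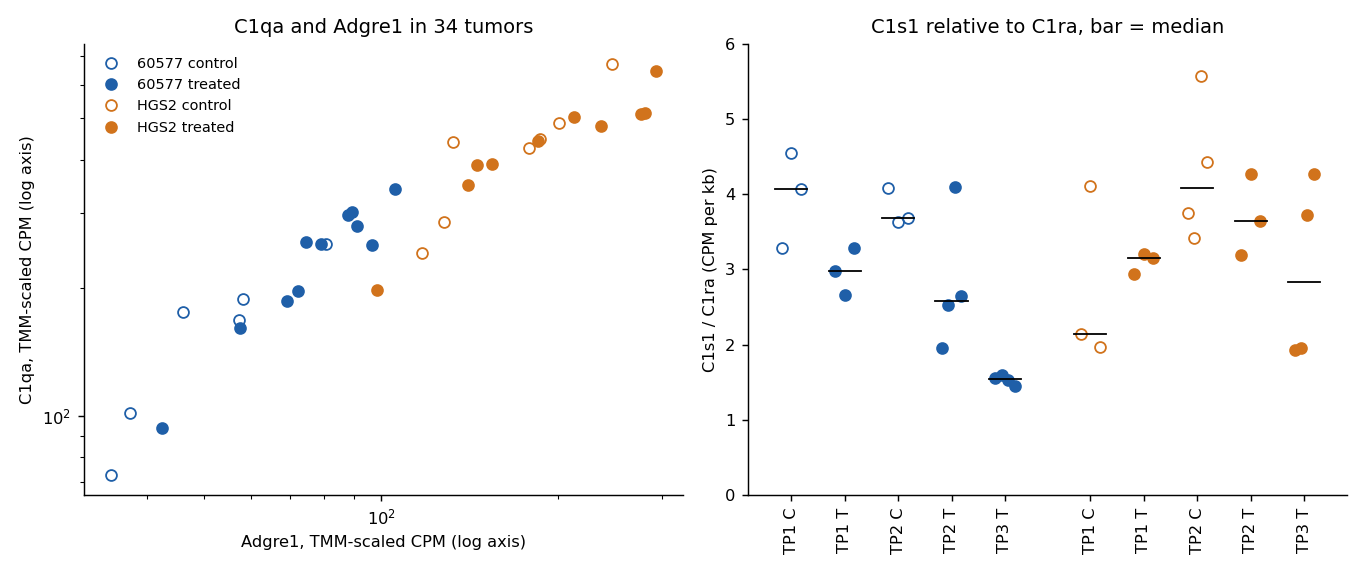
Left, C1qa against the macrophage gene Adgre1 in 34 tumors, both as TMM-scaled CPM on log axes; right, C1s1 divided by C1ra, each per kb of exon, in each tumor with the group median as a bar. C1qa rises with Adgre1 in both models, and the C1s1 to C1ra ratio is lowest, at 1.44 to 1.60, in the 60577 TP3 treated tumors.

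Other cell type markers moved in the same 60577 comparisons. The adipocyte list (Adipoq, Lep, Plin1, Fabp4, Lipe and Cidec, with Lipe at a median of 44.0 and Plin1 at 38.7 CPM over 60577 tumors the most abundant) summed to 38.7 to 40.8 CPM in TP1 controls and to 60.3, 588 and 33.4 CPM in TP1 treated tumors, where TP1 treated 2 was also the tumor with the most C4b and Cfb. It summed to 46.6 to 54.2 CPM in TP2 controls, 128 to 717 CPM in TP2 treated and 1368 to 1969 CPM in TP3 treated tumors, and 5, 5 and 6 of its 6 genes were called higher at TP1, TP2 and TP3. The macrophage list of 10 genes, with Lyz2 the most abundant, summed to 641 to 914 CPM in TP1 controls and 2448 to 3768 CPM in TP1 treated tumors, with 4, 2 and 4 genes called higher. It summed to 757 to 1246 CPM in TP2 controls, 1012 to 3152 CPM in TP2 treated and 2452 to 3353 CPM in TP3 treated tumors. The neutrophil list summed to 7.98 to 18.8 CPM in TP1 controls and 29.0 to 120 CPM in TP1 treated tumors, without overlap, and of its 3 genes tested all were called higher at TP1 and 2 lower at TP2 and TP3. The fibroblast list of 8 genes, with Col3a1 (median 3189.6 CPM over 60577 tumors) and Col1a1 (2934 CPM) the most abundant, summed to 5763 to 10012 CPM in TP1 controls and 17422 to 27358 CPM in TP1 treated tumors, without overlap and beside the TP1 rises of Cfb, C4b and Serping1. It summed to 6058 to 9550 CPM in TP2 controls, 7986 to 12012 CPM in TP2 treated and 8773 to 9484 CPM in TP3 treated tumors, and 6, 3 and 4 of its genes were called higher at TP1, TP2 and TP3. The mesothelial list of 5 genes summed to 2153 to 2310 CPM in TP1 controls and 668 to 1045 CPM in TP1 treated tumors, with 4, 1 and 4 genes called lower. The 60577 line in culture, scaled separately, summed to 3115 to 3468 CPM, so this list does not separate mesothelial cells from tumor cells. Of the 4 T cell genes, 3, 4 and 4 were called higher. All 6 epithelial genes tested of 7 were lower at each time point, and the hepatocyte gene Alb stayed at or under 18.6 CPM in every 60577 tumor. In bulk RNA, more cells of a type and more RNA per cell cannot be told apart, and the part of these cells in the complement changes was not tested.

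**Figure D4:**
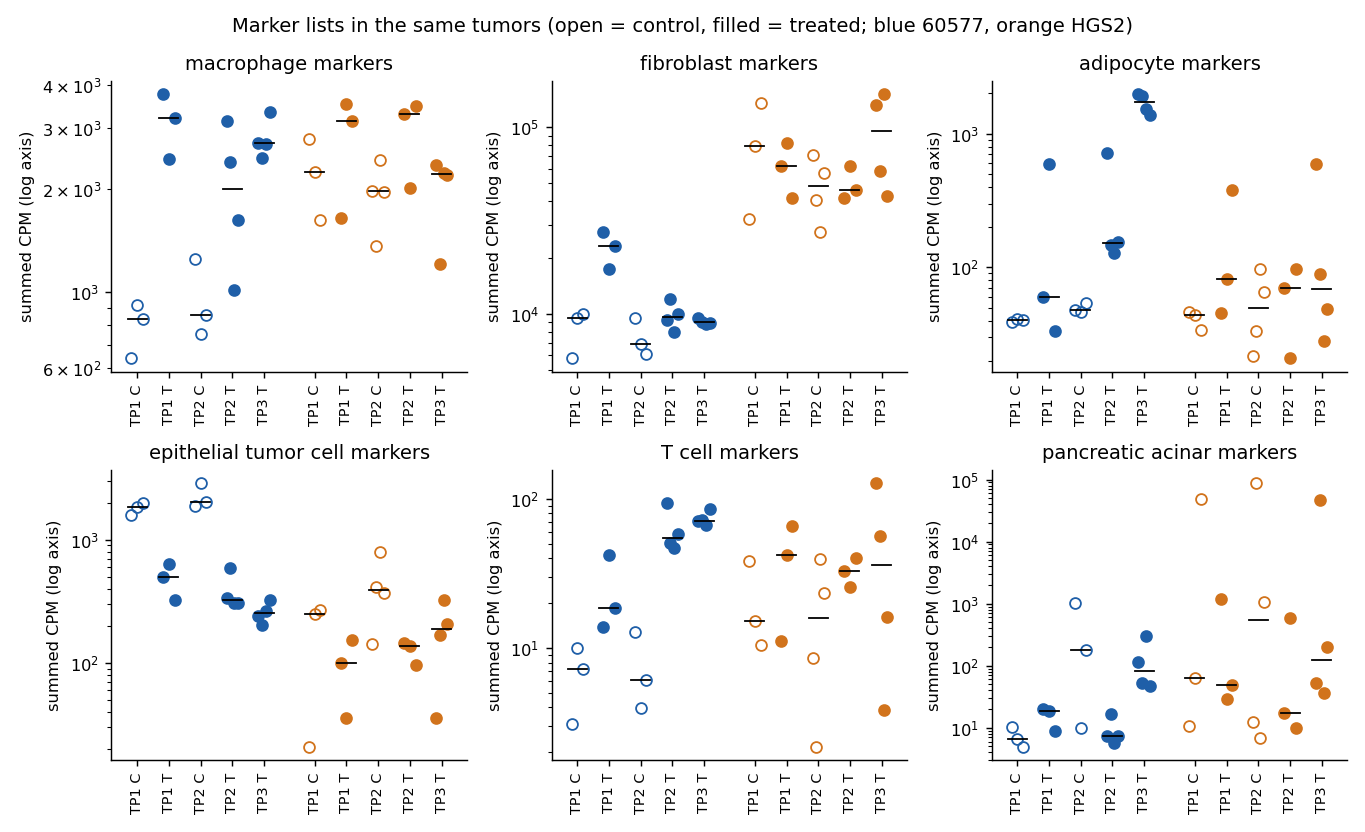
Summed CPM of 6 cell type marker lists in each tumor (log axis), by group, with the group median as a bar. Adipocyte markers are highest in the 60577 TP3 treated tumors, at 1368 to 1969 CPM, and acinar markers reach 46436 to 88314 CPM in 3 HGS2 tumors.

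In HGS2 tumors no complement gene was called after treatment. Of 16239 genes tested, 0% were called by edgeR at TP1, TP2 or TP3, with 413, 1233 and 406 genes at an unadjusted p under 0.05, and DESeq2 called 1, 8 and 5 genes and limma-voom 0. Likewise 0% were called between treated tumors of successive time points (152 and 1690 genes at an unadjusted p under 0.05, and 1 and 105 called by DESeq2) and between TP1 and TP2 controls (569 and 7). Leaving out the acinar-rich HGS2 tumors left these member counts at 0.

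Cfb came nearest to a change in HGS2. It was at 36.7, 27.9, 81.3 and 53.3 CPM in TP2 controls and at 140.2, 199.5 and 172 CPM in TP2 treated tumors. The groups did not overlap, and the log2 fold change of 1.78 ± 0.43 had an unadjusted p of 0.00105 and an adjusted p of 0.588. Without the acinar-rich tumors it was 1.53 (adjusted p = 0.802). In the same tumors the mesothelial list summed to 1514 to 2431 CPM in controls and 412 to 671 CPM in treated tumors, without overlap. The HGS2 line in culture, scaled separately, summed to 1900 to 2945 CPM, so this list does not separate mesothelial cells from tumor cells. Epithelial (144 to 795 and 96.7 to 145 CPM) and neutrophil sums (11.2 to 40.8 and 40.2 to 50.1 CPM) overlapped slightly. The part of the cells behind these sums in the Cfb values was not tested. At TP1, Cfb was at 123, 74.0 and 69.9 CPM in controls and at 104, 101 and 165 CPM in treated tumors, which overlapped (0.50 ± 0.46, adjusted p = 0.999, or 0.43 without the acinar-rich tumors).

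Serping1 and C3 at TP1 in HGS2 varied widely within groups. Serping1 was at 94.0, 294 and 86.0 CPM in controls and 508, 169 and 459 CPM in treated tumors, a log2 change of 1.27 ± 0.52 (adjusted p = 0.999). C3 was at 790, 2804 and 776 CPM in controls and 1852, 2044 and 5084 CPM in treated tumors (1.05 ± 0.55, adjusted p = 0.999). In both genes TP1 control 2 lay within the range of the treated tumors. Without the acinar-rich tumors the changes were 0.69 for Serping1 (adjusted p = 0.678) and 0.99 for C3 (adjusted p = 0.582). Leaving out single tumors moved Serping1 over 0.96 to 2.07 and C3 over 0.42 to 1.94, with the highest values without TP1 control 2 and the lowest C3 value without TP1 treated 3. C4b at TP1 was at 268, 426 and 508 CPM in controls and 204, 269.5 and 1003 CPM in treated tumors, and the tumor at 1003 CPM, TP1 treated 3, also had the highest adipocyte sum of the HGS2 tumors fitted (380 CPM). The C4b change was 0.32 ± 0.60 at TP1 and 0.67 ± 0.56 at TP2 (adjusted p = 0.763), and without the acinar-rich tumors 0.87 and 0.71. At TP2, C4b was at 242 to 346 CPM in controls and 426 to 567 CPM in treated tumors, without overlap.

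Cfb in HGS2 was lower in every TP3 treated tumor fitted than in every TP2 treated tumor (-1.42 ± 0.47), again without a call (adjusted p = 0.411). TP3 treated 1, left out of the fits, was at 147 CPM, above the lowest TP2 treated tumor. Without the acinar-rich tumors that Cfb difference was -2.02 (adjusted p = 0.192). C1qa (-0.71, adjusted p = 0.485) and C1qb (-0.77, adjusted p = 0.458) were also lower in every TP3 treated tumor, without a call. The other HGS2 changes lay between -0.03 (C1qc) and 0.26 (C1s1) at TP1 and between -0.07 (C1s1) and 0.60 (C1qb) at TP2, none called. C1qa was at 669, 487 and 286 CPM in TP1 controls and 389, 505 and 514 CPM in TP1 treated tumors, and at 448, 241, 439 and 426 CPM in TP2 controls and 513, 479 and 647 CPM in TP2 treated tumors. All 3 TP2 treated tumors were above all 4 TP2 controls, with 0.49 ± 0.31 (adjusted p = 0.703), or 0.30 without the acinar-rich tumors. C1qb did not overlap at TP2 either, at 255 to 478 CPM in controls and 552.5 to 745 CPM in treated tumors (adjusted p = 0.674). At TP3 the members ranged from -0.36 (C1s1) to 0.36 (Cfb) against TP2 controls. Without the acinar-rich tumors they ranged from -0.84 (C4b) to 0.29 (C3), none called, with Cfb at -0.49, and C1ra at TP1 was 0.47 in place of 0.23.

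Whether the models differ in their response was tested as the difference between their treatment effects. For TP1, 1.45% of 16241 genes were called and no member, and for TP2, 6.9% and no member. The 235 genes called for TP1 became 721 with the DESeq2 Wald test and 102 without the acinar-rich tumors. With single tumors left out, calls over all genes ranged over 62 to 647 for TP1 and 365 to 1474 for TP2. The Cfb rise at TP1 was smaller in HGS2 by 2.63 ± 0.71 on the log2 scale (adjusted p = 0.0522), a difference just short of the threshold. Cfb was called in this comparison by the DESeq2 Wald test (adjusted p = 0.00793). The other differences were -0.98 ± 0.70 for C4b (adjusted p = 0.477) and -0.09 ± 0.63 for Serping1 (adjusted p = 0.961) at TP1. Without the acinar-rich tumors the TP1 differences were -2.63 for Cfb (adjusted p = 0.0916), -0.37 for C4b and -0.65 for Serping1, and with single tumors left out C4b ranged from -2.05 to -0.46. At TP2 they were 0.32 ± 0.65 for Cfb, -0.73 ± 0.66 for C4b and 0.19 ± 0.59 for Serping1. Without the acinar-rich tumors the TP2 differences were -0.24 for Cfb, which turned direction, -0.84 for C4b and 0.31 for Serping1, none called.

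Untreated tumors of the 2 models differed in 5 of 9 members, beside 22% of all genes tested. The C1q genes and Cfb were higher and C3 was lower in HGS2. C1qa ran from 72.9 CPM over a median of 172 to 253 CPM in the 6 60577 controls and from 241 over 439 to 669 CPM in the 7 HGS2 controls, so that the ranges touched. The log2 differences were 1.43 ± 0.28 for C1qa, 1.62 ± 0.29 for C1qb and 1.44 ± 0.28 for C1qc (adjusted p = 0.000131, 4.5e-05 and 0.000128), with C1qb at 3.07-fold. For C1qb and C1qc every HGS2 control was above every 60577 control. Of the 10 macrophage genes, 7 were also higher and 1, Timd4, lower in HGS2 controls, and the part of macrophage numbers in the difference was not tested.

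Cfb in controls ran from 14.0 over 20.7 to 44.8 CPM in 60577 and from 27.9 over 69.9 to 123 CPM in HGS2, a log2 difference of 1.49 ± 0.35 (adjusted p = 0.000994). C3 ran from 3274 over 4492 to 5251 CPM in 60577 and from 776 over 2208 to 3212 CPM in HGS2, with every HGS2 control below every 60577 control (-1.22 ± 0.30, adjusted p = 0.00151). Beside these differences, fibroblast markers summed to 5763 to 10012 CPM in 60577 controls and 27493 to 134710 CPM in HGS2 controls, and epithelial markers to 1583 to 2897 CPM and 20.7 to 795 CPM, both without overlap. In culture, scaled separately, fibroblast markers summed to 1038 to 2194 CPM in the 60577 line and 14728 to 32217 CPM in the HGS2 line. Epithelial markers there summed to 4337 to 4616 CPM and 824 to 1397 CPM. The fibroblast list therefore does not separate fibroblasts from HGS2 tumor cells. The part of fibroblasts and of epithelial cells in the Cfb and C3 differences was not tested. C1ra (-0.51 ± 0.25), C1s1 (-0.62 ± 0.27) and Serping1 (-0.65 ± 0.31) were not called (adjusted p = 0.092, 0.0603 and 0.0769), and C4b differed by 0.20 ± 0.34 (adjusted p = 0.65). The same 5 members were called without the 6 acinar-rich tumors, and without HGS2 TP1 control 2 there were 7, with C1s1 at -1.09 and Serping1 at -1.06. Model, mouse strain and time since injection cannot be told apart in this comparison.

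In culture, C3 was the most abundant member per exon length, followed by C1s1 and C1ra. The 3 C1q genes had 0 counts in all 4 cell line libraries, where a count of 0 allows up to 3 counts, or 0.0674 to 0.101 CPM, for counting error only. C3 was at 1661 and 2518 CPM in the 60577 line and at 1825 and 451 CPM in the HGS2 line. C1s1 was at 67.9 and 171 CPM in 60577 and 184 and 28.1 CPM in HGS2, and C1ra at 35.8 and 53.3 CPM in 60577 and 97.0 and 19.0 CPM in HGS2. In all 3 genes HGS2 replicate 1 was several times replicate 2.

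C4b, Cfb and Serping1, the genes that rose in treated 60577 tumors, were at 20.0 CPM or less in both lines. Cfb was at 0.686 and 0.831 CPM in 60577 and at 1.18 and 0.270 CPM in HGS2. Serping1 was at 1.89 and 4.36 CPM in 60577 and 2.19 and 0.189 CPM in HGS2, and C4b at 2.17 and 7.55 CPM in 60577 and 20.0 and 4.37 CPM in HGS2. Beside these, the control tumors had medians of 20.7 (60577) and 69.9 (HGS2) CPM for Cfb, 255 and 148 CPM for Serping1 and 273 and 310 CPM for C4b. Tumors and cell lines were deposited as separate tables and scaled separately, so these levels are set side by side without a test. Between the lines 15.9% of 13742 genes were called and none of the 6 members tested, with changes from -1.41 ± 1.06 (Serping1, adjusted p = 0.388) to 1.32 ± 0.87 (C4b, adjusted p = 0.332), and -0.88 ± 0.67 for C3, 0.38 ± 0.72 for C1ra, -0.17 ± 0.88 for C1s1 and -0.09 ± 0.80 for Cfb. Leaving out an HGS2 library leaves 1, which is then assumed to vary like the 60577 libraries. Directions turned with the library left out. C1ra was -1.23 without HGS2 replicate 1 and 1.17 without replicate 2, C1s1 -2.09 and 0.67, and C4b -0.15 and 2.08.

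**Figure D5:**
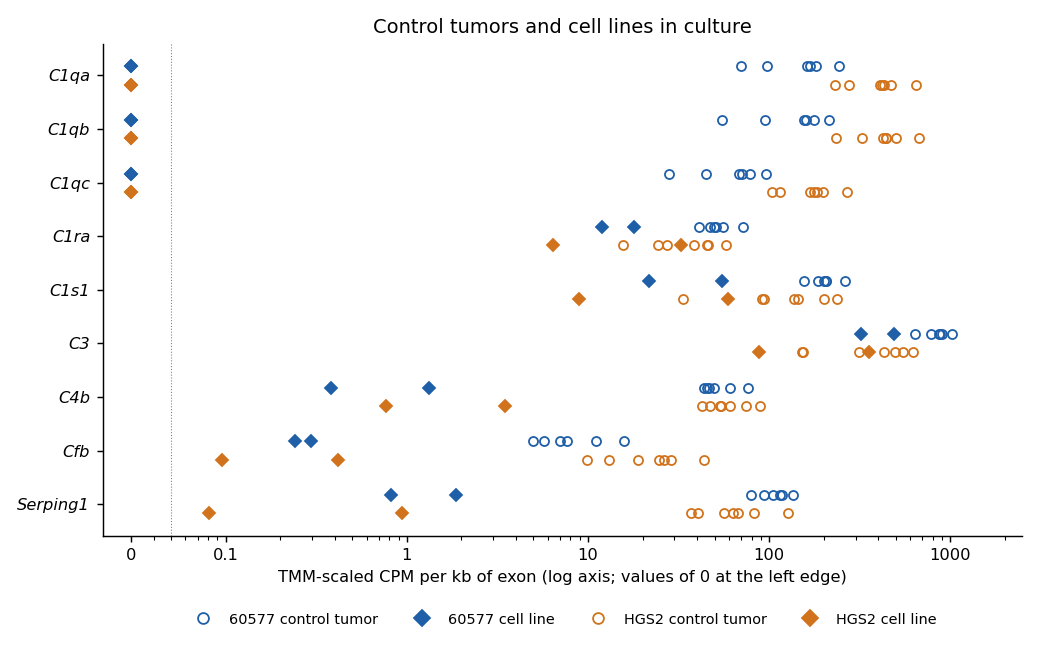
Level of the 9 genes in control tumors (open circles, 1 per tumor) and in cell lines in culture (diamonds, 1 per library), as TMM-scaled CPM per kb of exon on a log axis, with values of 0 drawn at the left edge. The C1q genes are at 0 in all 4 cell line libraries, and C4b, Cfb and Serping1 of the lines lie below every control tumor. C3 is the highest of the 9 in both lines and in 60577 controls, and level with C1qb in HGS2 controls (medians of 429 and 439 CPM per kb).

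The wider complement system was followed through 45 further genes, of which 34 passed the filter in tumors. In 60577 there were 11 higher and 2 lower at TP1, 8 and 3 at TP2, and 10 and 3 at TP3. Over all genes tested, 9.66% were higher and 5.97% lower at TP1, 14.8% and 9.62% at TP2, and 14.2% and 10.2% at TP3, which also stand beside the counts for smaller groups of genes that follow. Of the 9 receptor genes, 6 were higher at TP1, among them C3ar1 (1.59, adjusted p = 0.000498) and C5ar1 (1.72, adjusted p = 0.000133), the receptors for the C3a and C5a fragments, and Itgb2 (2.63, adjusted p = 0.00011), the shared chain of complement receptors 3 and 4. At TP2 and TP3 these 3 were not called, with log2 fold changes of -0.51 to 0.41. Cr2, the complement receptor of B cells, gave 1.16 at TP1 (adjusted p = 0.239) and was higher at TP2 (4.56, adjusted p = 0.000215) and TP3 (5.51, adjusted p = 5.01e-05), beside a B cell list with all 4 genes higher at both times.

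Of the alternative pathway genes outside the 9, Cfd and Cfp were both higher at TP1 and TP3. Cfd encodes factor D, the protease that cleaves factor B and that fat cells secrete as adipsin, and it was at 0.416, 0.63 and 1.27 CPM in 60577 TP1 controls and at 4.63, 261 and 1.05 CPM in TP1 treated tumors, with TP1 treated 3 among the controls. At TP3 it was at 824, 873, 870 and 666 CPM against 3.28, 0.0622 and 2.76 CPM in TP2 controls, a log2 fold change of 8.67 (adjusted p = 0.00153). The terminal component C7 was higher at TP1 (3.84), TP2 (3.26) and TP3 (6.33, adjusted p = 3.57e-06). Of the 11 regulator genes tested, 1 was higher and 2 lower at TP1, 1 and 2 at TP2, and 2 and 2 at TP3. Clu, a chaperone that limits the membrane attack complex, was lower at TP2 and TP3 (-1.57 and -1.49), and C2, which pairs with C4 in the classical convertase, gave 0.01, 0.19 and 0.67 and was not called.

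Of 11 tested genes for inducers of complement and for the interferon response, Il6 (1.71, adjusted p = 0.0451), Il1b (1.82, adjusted p = 0.0083), Tnf (1.85, adjusted p = 0.0054) and Irf7 (1.89, adjusted p = 0.0131) were higher in 60577 at TP1. At TP2 Tnf (1.76) and Irf7 (1.71) were higher and Il1b (-1.45) was lower. Ifit1 was also called at TP2 (2.85), with 2.98, 1.40 and 2.43 CPM in controls and 2.69, 54.8, 5.17 and 3.17 CPM in treated tumors, of which TP2 treated 2 stood far above the others. At TP3 Tnf and Cxcl9 were higher and Il1b was lower (-2.64, adjusted p = 0.000204).

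The other members lie at chr6:124512405-124523443 (C1ra, plus strand), chr6:124530345-124542359 (C1s1), chr17:57203970-57228136 (C3), chr17:34728380-34743882 (C4b), chr17:34856374-34862518 (Cfb) and chr2:84765387-84775444 (Serping1, all minus strand after C1ra). Near copies and overlapping genes limit some of these values. C1ra shares 34.5% of its 100-base transcript stretches with C1rb, C4b shares 15.2% with C4a and C1s1 shares 6.87% with C1s2, so that reads from those stretches were split by estimation. Over 34 tumors the copies had few counts, 1944 for C1rb beside 159721 for C1ra, 1470 for C4a beside 583344 for C4b, and 15134 for C1s2 beside 479820 for C1s1. C1rb and C1s2 were also far lower in HGS2 than in 60577 controls, by -5.43 and -6.04 on the log2 scale (adjusted p = 9.76e-08 and 3.14e-15). Gm20547 covers 79.5% of the exon bases of Cfb on the same strand and had 63 counts beside 89943 for Cfb.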

How the data were processed

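Bulk RNA of 34 mouse omental tumors and 4 cell line libraries was analyzed, with groups taken from the labels. According to the study's methods and the submitters' processing notes, ribosomal RNA was depleted, strand-specific paired reads of 150 bases were trimmed with Trim Galore 0.6.5, mapped with STAR 2.7.0f to GRCm38 (mm10) and quantified with RSEM 1.3.1. Both deposited tables hold expected counts that the authors estimated with RSEM, neither filtered nor normalized, and every column had a sample. Symbols, positions and exon lengths came from GENCODE M21, which held 55227 of the 55487 genes.

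Expected counts were rounded. Genes with at least 1 CPM in 25% of the libraries of a table were kept (16241 in tumors, 13742 in cell lines), scaled with TMM and tested two-sided with edgeR 4.0.16 (quasi-likelihood, Benjamini-Hochberg over all genes tested) in R 4.3.3. The 5 groups of a model were fitted together, both models jointly for comparisons between them, and the cell lines alone. The standard error is the absolute log2 fold change divided by the square root of F. The script was tested on simulated data. Levels were computed with Python 3.11.15 and pandas 2.3.3, and figures drawn with matplotlib 3.10.9.

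The members, gene lists and tests were chosen with earlier results of these data known. All members were named. Other genes were named from the listed genes called and the 5 genes most like each member (deviations of log2 CPM from group means), not all of which are named. A result for 1 listed gene is not reported here. Genes outside that rule (C2, Alb, Pax8, Epcam, Cdh1, Wt1 and the keratin genes) were chosen after their values were seen. Nothing in the labels pairs tumors by replicate number, and same-numbered tumors did not deviate together (median correlation -0.04 in 60577 and -0.081 in HGS2). No 2 of 44 replicate pairs were copies (chi-square per degree of freedom at least 10). Where separate animals or cultures are not stated, p-values measure only the spread between samples.

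Other settings tried were size factors from DESeq2 1.42.0, all genes kept, filterByExpr, limma-voom (limma 3.58.1), the DESeq2 Wald test, a replicate block, a joint fit, HGS2 TP3 treated replicate 1 kept and each library left out. Added after seeing the data were leaving out acinar-rich tumors and a crossed block for the cell lines.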

Additional observations from a re-analysis of the deposited data

Results flagged for a closer look

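Within groups of 4 tumors, 3 of 36 sets of values had a tumor set far from the others, where chance alone flags about 1 in 20 independent sets. These sets were not independent, since C1qa and C1qb vary together (r = 0.994) and were flagged in the same tumor. Serping1 was at 1030 CPM in 60577 TP3 treated 4, above the 732 to 773 CPM of the other TP3 tumors. C1qa and C1qb were at 241 and 255 CPM in HGS2 TP2 control 2, below the 426 to 448 and 463 to 478 CPM of the other TP2 controls, and that tumor had the highest acinar sum, 88314 CPM. The part of that RNA in the low C1q levels was not tested.

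HGS2 TP3 treated 1, which was left out of the fits, was above every HGS2 TP2 control in 5 of 9 members, and in 30.2% of the 16241 genes kept. It had 1006 CPM of C4b, 4871 CPM of C3, 147 CPM of Cfb, 270 CPM of Serping1 and 187 CPM of C1ra, and also 1045 CPM of Cfd and an adipocyte sum of 593 CPM, a B cell sum of 612 CPM and a T cell sum of 128 CPM, each the highest of the HGS2 tumors.

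The response to treatment differed between the models (edgeR interaction) in some genes of the wider complement system. At TP1 the HGS2 response was lower than that of 60577 by -2.54 (log2) for Colec12 (adjusted p = 0.0129) and by -1.72 for C5ar1 (adjusted p = 0.0447). At TP2 the differences were -1.57 for Colec12 (adjusted p = 0.0396), -3.90 for C7 (adjusted p = 0.0383), -7.12 for Cr2 (adjusted p = 0.0438), -5.83 for Csmd1 (adjusted p = 0.0264) and 1.12 for C5ar2 (adjusted p = 0.033). Without the acinar-rich tumors, Cr2 (-8.28, adjusted p = 0.0165) and Csmd1 (-9.28, adjusted p = 0.00741) were still called at TP2, and Clu (3.02, adjusted p = 0.0227) and Cpn1 (6.48, adjusted p = 0.0059) were called in addition. Not called were Colec12 at TP1 (-2.11, adjusted p = 0.0592) and TP2 (-1.34, adjusted p = 0.088), C5ar1 (-1.68, adjusted p = 0.0779), C7 (-2.93, adjusted p = 0.164) and C5ar2 (1.16, adjusted p = 0.0614). Csmd1 and Cpn1 were low, with medians of 1.91 and 0.637 CPM over 60577 tumors and 0.991 and 0.282 CPM over HGS2 tumors. Their highest tumors reached 9.89 and 17.2 CPM in 60577 and 18.9 and 29.0 CPM in HGS2. The large differences of these genes can therefore rest on few tumors.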

How the results depend on the processing

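Of the alternatives that kept every library, limma-voom called 2 members instead of 1 between 60577 TP3 and TP2 treated tumors (C1ra added) and 4 instead of 3 at TP3 against TP2 controls (C1qb added), DESeq2 size factors and the DESeq2 Wald test each called 1 instead of 0 in the TP1 response difference (Cfb), and the joint fit lost C4b in 60577 at TP1 (1.27, adjusted p = 0.0775); the causes were not tested. With single libraries left out, members called ranged from 2 to 3 in 60577 at TP1, 1 to 2 at TP2, 3 to 6 at TP3, 0 to 2 from TP1 to TP2 treated, 0 to 3 from TP2 to TP3 treated, 0 to 1 in the TP1 response difference, and 0 to 4 between cell lines, and 7 at most between controls. Over all genes, 60577 calls at TP1 went from 2537 to 1605 in the joint fit, from TP1 to TP2 treated from 977 to 271, from TP2 to TP3 treated from 1279 to 803, and the TP1 response difference from 235 to 721 with DESeq2, 154 with HGS2 TP3 treated 1 kept and 102 without acinar-rich tumors. With libraries left out the last 3 of these ranged over 254 to 1369, 732 to 2127 and 62 to 647, the TP2 response difference over 365 to 1474, and cell line calls, 2189 with all, over 503 to 3535. TP1 and TP2 controls gave 0 to 36 (60577) and 0 to 49 (HGS2), and the joint fit 3 (HGS2 TP3 against TP2 controls) and 1 (TP3 against TP2 treated).

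The replicate numbers were not taken as pairing the samples, and the replicate block changed no call of a member. It moved all genes called from 977 to 570 (60577 TP1 to TP2 treated) and from 1120 to 679 (TP2 response difference). In the cell lines the same-numbered libraries correlated at -0.153, and a crossed replicate block, added after seeing the data, called 1 member (C4b).

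Small changes that were not called turned sign. In HGS2 at TP1, C1qb was -0.0076 with DESeq2 size factors, -0.0077 with the Wald test, -0.0163 in the joint fit and -0.0848 without acinar-rich tumors, and with limma-voom C1qa was 0.0811, C1qc 0.0511 and C4b -0.0013. With the replicate block C1qa was 0.0074 at TP1 and C1s1 0.12 at TP2. The TP1 response difference of Serping1 was 0.0066 (limma-voom), and that of Cfb at TP2 was -0.24 without acinar-rich tumors. Between cell lines C1ra was -0.066 (limma-voom), -0.0215 (replicate block) and -0.0179 (crossed block). With single libraries left out, 60577 TP2 ranged from -0.091 to 0.69 (C1qa), -0.23 to 0.53 (C1qc), -0.37 to 0.17 (C1ra) and -0.0634 to 0.61 (Serping1). HGS2 TP1 ranged from -0.29 to 0.27 (C1qa), -0.23 to 0.25 (C1qb), -0.32 to 0.24 (C1qc), -0.17 to 0.58 (C1ra), -0.19 to 1.21 (C1s1) and -0.75 to 0.69 (C4b), and HGS2 TP2 from -0.11 to 0.33 (C3) and -0.21 to 0.14 (C1s1). Response differences ranged from -0.42 to 0.72 (Serping1, TP1), -0.074 to 0.58 (Serping1, TP2) and -0.0597 to 0.66 (Cfb, TP2), and cell lines from -1.23 to 1.17 (C1ra), -2.09 to 0.67 (C1s1), -1.48 to 0.68 (Cfb) and -0.15 to 2.48 (C4b).

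Groups held 2 to 4 samples. Depth limits the cell line values of Cfb, which had 62 counts over both 60577 and 45 over both HGS2 libraries, and of Serping1 in the HGS2 line, with 72.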
